A study of Mus musculus with 12 samples.

Results

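Tap1, H2-Ab1, Gbp2, Rsad2 and Oasl2, genes of the interferon response and of antigen presentation, were followed in mouse cells that lost the arginine methyltransferase gene Prmt5. They are 5 of the 2477 gene names that the authors' deposited tables list as changed in neural progenitor cells (NPC), in mouse embryonic fibroblasts (MEF) or in both, and were chosen by symbol. RNA was sequenced from 12 libraries in 4 groups, NPC with 4-OHT, NPC with ethanol, MEF with 4-OHT and MEF with ethanol, with 3 libraries in each. Both cell types came from E14.5 embryos of the mixed C57BL/6 X 129S1/SvlmJ strain and carried the genotype Prmt5 F/FER, a conditional allele that 4-hydroxytamoxifen (4-OHT) deletes. The treated cells received 50 nM 4-OHT for 24 h before splitting and the others the same volume of ethanol. NPC were grown as neurospheres from the cortex with growth factors, and MEF were primary cells grown to confluence. No library came from cells that lack the conditional allele but received 4-OHT, so the drug and the loss of Prmt5 cannot be told apart. The labels do not name what drives the recombinase, and they do not say whether libraries of a group came from separate cultures.

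Interferons are secreted alarm proteins. Their receptors signal through kinases and transcription factors to genes that carry an interferon-stimulated response element (ISRE) or a gamma-activated site (GAS), and the products of these genes block viruses and load peptides for T cells. Major histocompatibility complex (MHC) class I molecules show peptides from the cytosol on nearly all cells, whereas class II molecules belong mainly to professional antigen-presenting cells and are low in resting neural cells and fibroblasts.

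Each deposited table gives 1 RPKM value for each arm (read density scaled to transcript length and library size), the log2 ratio of 4-OHT over ethanol, and an unadjusted Cuffdiff p. All listed genes lie under 0.05 in p and differ more than 1.5-fold. A gene that is not listed was untested, less changed or at a higher p, and its level is not known here. The sequencing depth of the libraries is unknown, and no spread between replicates can be computed. Prmt5 itself was at 4.92 RPKM with 4-OHT and 33.4 RPKM with ethanol in NPC in the authors' deposited table. In MEF the authors' deposited table has it at 3.76 RPKM with 4-OHT and 21.0 RPKM with ethanol. The labelled cell types could not be checked by markers, since the tables hold changed genes alone: of 12 progenitor markers the NPC table lists Hes5 alone, and of 12 fibroblast markers the MEF table lists 0.

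The stretches of 250 bases before the gene start are shown for the 4 genes with a RefSeq promoter entry, to show where interferon motifs lie in them. The build is GRCm38.p6, whereas the deposited tables come from mm9. Capitals mark matches to the ISRE, searched as GAAA, NN and GAAA in a row, on either strand in Gbp2 (chr3:142620413-142620662, plus strand) and Rsad2 (chr12:26456453-26456702, minus strand). In Tap1 (chr17:34187306-34187555, plus strand) they mark CCAAT, from a search for the inverted CCAAT box ATTGG on both strands. The ATTGG match lay on the strand opposite to the gene, so along Tap1 the box reads forward. Oasl2 (chr5:114896684-114896933, plus strand) held no match to any motif searched. H2-Ab1 has no entry. All sequences run 5′ to 3′ along the gene's strand.
Gbp2: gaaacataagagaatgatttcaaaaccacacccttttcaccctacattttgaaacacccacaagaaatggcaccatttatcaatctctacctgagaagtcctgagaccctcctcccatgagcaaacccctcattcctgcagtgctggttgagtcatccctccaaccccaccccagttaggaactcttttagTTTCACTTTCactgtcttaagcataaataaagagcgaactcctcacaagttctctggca
Rsad2: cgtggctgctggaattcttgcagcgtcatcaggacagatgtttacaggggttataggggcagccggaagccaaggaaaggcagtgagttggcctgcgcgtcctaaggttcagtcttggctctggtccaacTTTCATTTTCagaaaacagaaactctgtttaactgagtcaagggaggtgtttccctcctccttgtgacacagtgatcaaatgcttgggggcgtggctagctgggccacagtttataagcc
Tap1: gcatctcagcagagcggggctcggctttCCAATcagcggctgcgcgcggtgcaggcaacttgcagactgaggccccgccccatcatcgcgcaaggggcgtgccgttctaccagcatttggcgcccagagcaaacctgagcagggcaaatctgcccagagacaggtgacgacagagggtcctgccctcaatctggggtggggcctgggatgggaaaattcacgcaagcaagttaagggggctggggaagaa
Oasl2: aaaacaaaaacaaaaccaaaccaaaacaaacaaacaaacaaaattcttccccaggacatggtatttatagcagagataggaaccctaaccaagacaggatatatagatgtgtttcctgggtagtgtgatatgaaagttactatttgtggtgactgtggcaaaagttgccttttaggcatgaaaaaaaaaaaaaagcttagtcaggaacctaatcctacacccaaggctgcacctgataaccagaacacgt

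The ISRE letters lay 59 to 50 bases before the start of Gbp2 and 120 to 111 bases before the start of Rsad2, both on the strand opposite to the gene. They occur in 2.98% of 32851 promoter stretches of the same length. The CCAAT box of Tap1 lay 222 to 218 bases before the start. Such a match on either strand is common, in 33.8% of stretches. None of the 4 stretches held the GAS letters TTCNNNGAA, the X box letters CCTAGCAAC of class II promoters, the NF-kB letters GGG, NN and TTTCC in a row or a p53 response element made of a pair of half-sites. These were found in 7.02%, 0.694%, 1.41% and 0.0639% of all stretches. Of the 166 genes in 6 lists of interferon and antigen presentation genes, 33 are listed as changed besides the 5 genes, and 23 of these have a promoter entry. The ISRE letters are in 4 of them: Igtp, Irgm2, Ifit1 and Ifitm2. The GAS letters are in 6 of the 23: H2-M3, Igtp, Irgm2, Isg20, Psmb8 and Samhd1. A p53 response element was found in Ifitm2 alone of the 23. A match describes these letters, not a bound site.

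**Figure D1:**
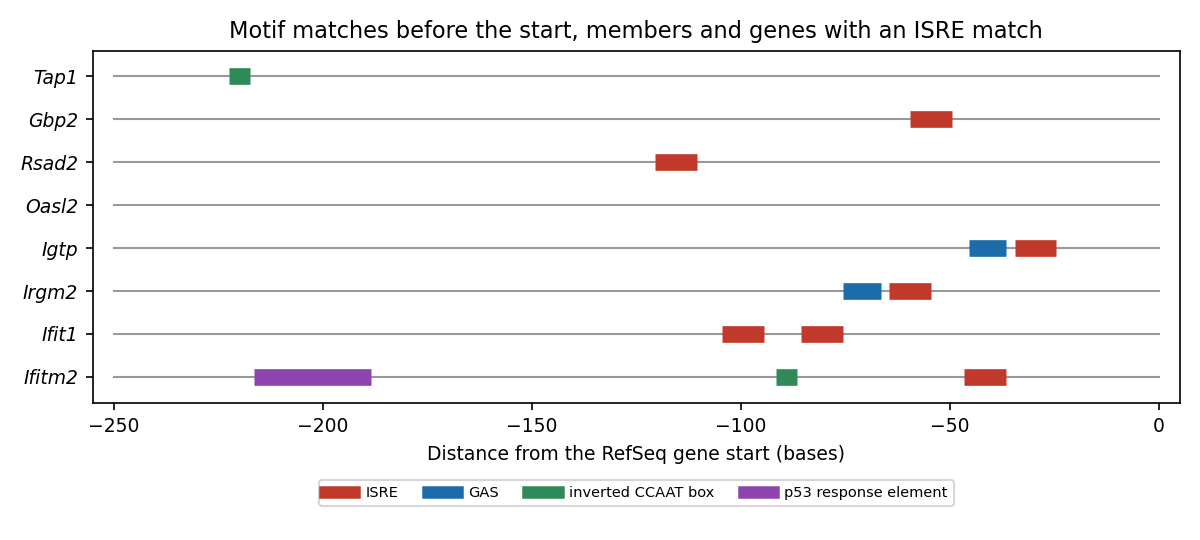
Motif matches in the 250 bases before the RefSeq start of Tap1, Gbp2, Rsad2 and Oasl2 and of the 4 other changed genes with ISRE letters; the axis gives the distance from the start in bases, and colored blocks are matches on either strand. Gbp2 and Rsad2 each hold 1 ISRE match, and Oasl2 holds none of the motifs searched.

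The 5 genes divided by cell type. Tap1, H2-Ab1 and Gbp2 are listed in NPC and not in MEF, and Rsad2 and Oasl2 in MEF and not in NPC, all of them higher with 4-OHT. No gene of the 5 is listed in both, so a difference in response between the cell types could not be tested. By protein-coding names of the annotation, 5.64% are listed as higher in NPC and 0.246% in MEF. The 5 genes were chosen with these values known, so nothing is read from 3 of 5 and 2 of 5. The 95% intervals and standard errors (SE) of the changes were derived from the deposited p under a normal distribution and do not come from replicate values.

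Tap1 encodes a subunit of the transporter that moves peptides from the cytosol into the endoplasmic reticulum, where class I molecules are loaded. In NPC the authors' deposited table has Tap1 at 6.39 RPKM with 4-OHT and 1.53 RPKM with ethanol. This is a 4.17-fold higher level and a log2 fold change of 2.06, with an interval of 1.57 to 2.55. The deposited Cuffdiff p is 0, as for 102 genes of that table, so its SE of 0.25 is an upper limit. Of the 2416 genes listed in NPC, 43.7% reach a higher level in their higher arm than Tap1. It was the only one of the 3 NPC genes to reach 1 RPKM in either arm. In the annotation its first bases overlap those of Psmb9 on the opposite strand by 212 bases, and the RefSeq starts of both genes lie 226 bases apart and point away from each other. The labels name a library kit that does not mark strand, so reads from the overlap cannot be told apart. Psmb9, an immunoproteasome subunit gene, is not among the genes listed in NPC.

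H2-Ab1 encodes the beta chain of the class II molecule I-A. The authors' deposited table places it at 0.908 RPKM with 4-OHT and 0.325 RPKM with ethanol in NPC. Its level was 2.79-fold higher with 4-OHT, a log2 fold change of 1.48 (interval 0.72 to 2.24, SE 0.39, Cuffdiff p = 0.000135 in the authors' deposited table). Both arms are low: 73.7% of the genes listed in NPC reach a higher level. The difference between the arms is 0.583 RPKM.

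Gbp2, a guanylate-binding protein gene, encodes a large GTPase that coats vacuoles of intracellular pathogens. In NPC it stood at 0.917 RPKM with 4-OHT and 0.324 RPKM with ethanol in the authors' deposited table. The level was 2.83-fold higher with 4-OHT, with a log2 fold change of 1.499, an interval of 0.89 to 2.10, an SE of 0.31 and a Cuffdiff p of 1.17e-06 in the authors' deposited table. Gbp2 and H2-Ab1 thus lay at nearly the same level in each arm, and their changes cannot be ranked within the intervals. Their levels have no interval and are not ranked. Over the log2 RPKM values of both arms, the listed genes nearest to H2-Ab1 were Tmem132b and Gbp2, at distances of 0.012 and 0.014. For Tap1 the nearest were Pygm and Plxdc2, at 0.19 and 0.26. With 2 values for each gene, likeness says only that levels were alike.

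**Figure D2:**
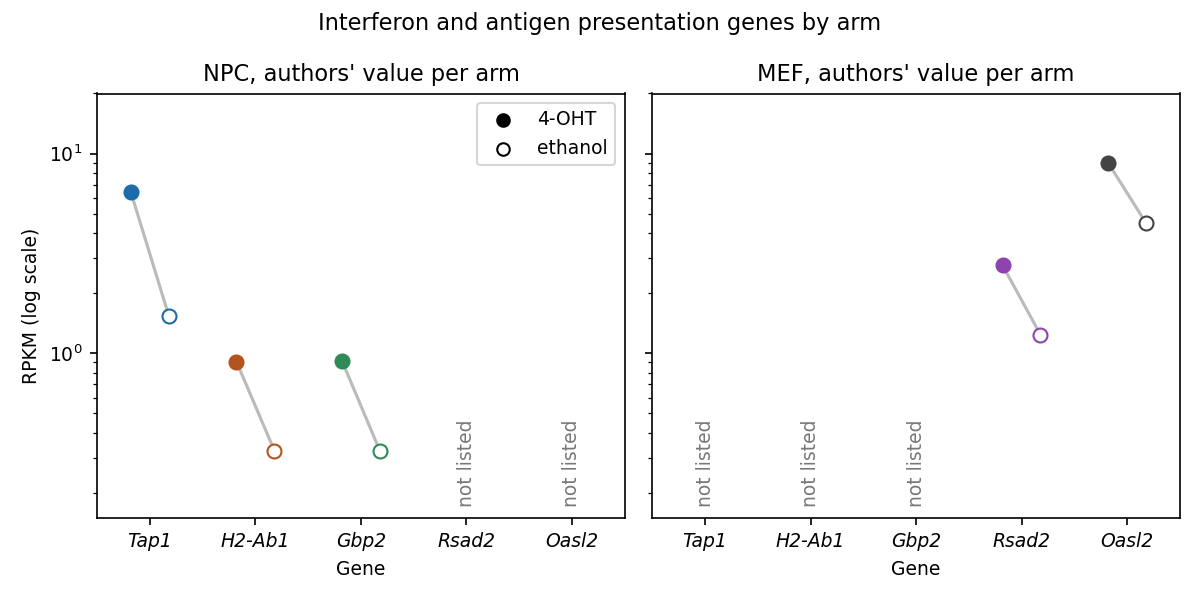
RPKM on a log scale for the 5 genes in NPC (left) and MEF (right), with the 4-OHT arm as a filled point and the ethanol arm as an open point, each the authors' single value for 3 libraries. Every listed gene is higher with 4-OHT; H2-Ab1 and Gbp2 stay under 1 RPKM in both arms, and genes that a table leaves out are written as not listed.

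All 3 NPC genes would pass an adjusted p of 0.05 whatever the number of genes tested. The largest Benjamini-Hochberg adjusted Cuffdiff p that is possible, counting all 55341 annotated gene names as tested, was 0.00502 for H2-Ab1 and 7.72e-05 for Gbp2. Of the genes listed in NPC, 73.8% pass the same bound.

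Rsad2 encodes viperin, a radical SAM enzyme that turns cytidine triphosphate into a chain terminator of viral RNA synthesis. In MEF the authors' deposited table has it at 2.76 RPKM with 4-OHT and 1.24 RPKM with ethanol. The 2.23-fold higher level is a log2 fold change of 1.16, with an interval of 0.05 to 2.26 and an SE of 0.56 (Cuffdiff p = 0.0402 in the authors' deposited table). Cmpk2, a nucleotide kinase gene that lies beside it on the chromosome and is also interferon-induced, is not among the genes listed in MEF.

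Oasl2 encodes an oligoadenylate synthetase-like protein of the antiviral response. Its level in MEF was 9.01 RPKM with 4-OHT and 4.49 RPKM with ethanol in the authors' deposited table. The level was 2.01-fold higher with 4-OHT, with a log2 fold change of 1.00, an interval of 0.03 to 1.98 and an SE of 0.50 (Cuffdiff p = 0.0425 in the authors' deposited table). Its neighbor and paralog Oasl1 is not listed. Whether the tables of the cell types were normalized together is not stated, so these levels are not compared with those in NPC. Over the log2 RPKM values of both arms, the genes listed in MEF that lay nearest to Rsad2 were Arhgap20 and Adamtsl1, both at a distance of 0.18. For Oasl2 they were Ano3 and Jag1, at 0.080 and 0.20.

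The calls on Rsad2 and Oasl2 were weak. By deposited p they rank 81 and 88 of the 111 genes listed in MEF, and their intervals nearly reach 0. The largest possible Benjamini-Hochberg adjusted Cuffdiff p over all annotated names was 1 for both, and 0.901% of the genes listed in MEF, which is Prmt5 alone, are sure to pass. These are the 2 genes, out of 166 in the 6 lists, that MEF lists, where 0.47% of protein-coding names are listed in either direction and 50.5% of listed genes are higher. Both were chosen with these values known, so nothing is read from 2 of 166. Of the 161 list genes without the 5 chosen genes, 0 are listed in MEF. The table holds 0 of 29 class I presentation genes, 0 of 16 class II genes, 0 of 21 interferon-inducible GTPase genes and 0 of 31 genes of interferon ligands, receptors and signaling. Unlisted genes such as Irf7, Isg15 and Ifit1 are not shown to be unchanged.

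The NPC table lists 36 of the 166 genes, 29 higher and 7 lower, with a median log2 fold change of 1.09. Among all 2416 genes listed in NPC the share of higher genes is 56.6% and the median log2 fold change is 0.66, and by protein-coding names 9.76% are listed in either direction. Of the 36 genes, 24 are sure to pass an adjusted p of 0.05, beside 73.8% of all genes listed in NPC. Level and direction went together: all 16 of these genes under 1 RPKM in their higher arm were higher with 4-OHT, while the 20 at 1 RPKM or more were split into 13 higher and 7 lower. The same held across the table, where 80.6% of 674 listed genes under 1 RPKM and 47.3% of 1742 above it were higher. Whether the direction of the low genes comes from their level was not tested. In bulk RNA, more cells of a type and more RNA per cell cannot be told apart. Without the 5 chosen genes, 33 of 161 list genes are listed in NPC, 26 higher and 7 lower, with a median log2 fold change of 1.06.

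Of the 29 class I presentation genes, 5 are listed in NPC as higher and 3 as lower. Beside them, 9.76% of protein-coding names are listed in either direction, and 56.6% of all listed genes are higher. With Tap1, its partner subunit Tap2 rose, to 2.52 RPKM with 4-OHT against 1.21 RPKM with ethanol in the authors' deposited table, a log2 fold change of 1.05 (SE 0.23). Of the 4 listed heavy chain genes, 3 were lower and H2-M3 was higher. H2-K1, a classical class I heavy chain, fell to 17.96 RPKM with 4-OHT against 28.1 RPKM with ethanol in the authors' deposited table (log2 fold change -0.65, SE 0.15). H2-Q7, a non-classical heavy chain, fell to 0.616 RPKM with 4-OHT against 1.76 RPKM with ethanol in the authors' deposited table (log2 fold change -1.51, SE 0.31).

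The remaining 4 class I genes were named after their values were seen. H2-D1, whose row is joined with LOC547349, was at 7.70 RPKM with 4-OHT and 11.7 RPKM with ethanol in the authors' deposited table, without a sure pass (adjusted Cuffdiff p bound 0.226). Nlrc5, a transactivator of class I genes, rose, but at 0.202 RPKM with 4-OHT and 0.0707 RPKM with ethanol in the authors' deposited table. Psmb8, an immunoproteasome subunit gene next to Tap1, was at 0.622 RPKM with 4-OHT and 0.310 RPKM with ethanol, and the non-classical heavy chain gene H2-M3 at 0.337 RPKM with 4-OHT and 0.159 RPKM with ethanol, in the authors' deposited table. Neither Psmb8 nor H2-M3 was sure to pass. Class I heavy chain genes are closely similar in sequence, and the values of H2-K1, H2-D1 and H2-Q7 are uncertain, because no source used here states how shared reads were split among them.

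Of the 16 class II presentation genes, 4 are listed in NPC besides H2-Ab1, all higher and all sure to pass. Beside them, 9.76% of protein-coding names are listed. Of all listed genes 56.6% are higher and 73.8% are sure to pass. H2-Eb1, the beta chain of I-E, had a log2 fold change of 3.04 (SE 0.66), but its level was 0.422 RPKM with 4-OHT and 0.0511 RPKM with ethanol in the authors' deposited table. Higher levels were found for genes of regulation and processing. Rfx5, a subunit of the factor that binds the X box, rose to 9.22 RPKM with 4-OHT against 4.42 RPKM with ethanol in the authors' deposited table. Ifi30, a lysosomal thiol reductase gene, rose to 4.06 RPKM with 4-OHT against 2.22 RPKM with ethanol in the authors' deposited table. H2-DMa, a chain of the peptide exchange factor, was at 3.53 RPKM with 4-OHT and 1.85 RPKM with ethanol in the authors' deposited table. The genes of the alpha chain partner H2-Aa, the invariant chain Cd74 and the master regulator Ciita are not listed.

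Of the 21 interferon-inducible GTPase genes, 6 are listed besides Gbp2, all higher, with 3 sure to pass and a median log2 fold change of 1.62. Of these 6, 4 lie under 1 RPKM, where 80.6% of all listed genes are higher. Beside them, 9.76% of protein-coding names are listed in NPC, and 73.8% of all listed genes are sure to pass. Gbp9, another guanylate-binding protein gene, rose to 2.10 RPKM with 4-OHT against 0.692 RPKM with ethanol in the authors' deposited table. The immunity-related GTPase gene Igtp rose to 1.15 RPKM with 4-OHT against 0.369 RPKM with ethanol in the authors' deposited table. Like Gbp2, the other 4, Irgm2, Gbp4, Gbp11 and Gbp6 under its older name Mpa2l, stayed under 1 RPKM in both arms. Gbp genes are paralogs, so reads may be shared among them.

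Of the 50 antiviral effectors, which include Rsad2 and Oasl2, 9 others are listed in NPC and all are higher, with 4 sure to pass. By protein-coding names 9.76% are listed in NPC. Of all genes listed there 56.6% are higher and 73.8% are sure to pass, and of those under 1 RPKM 80.6% are higher. Ifitm3, which hinders viral entry by fusion, rose to 8.48 RPKM with 4-OHT against 3.89 RPKM with ethanol in the authors' deposited table. Ifitm2 of the same family rose to 12.1 RPKM with 4-OHT against 6.75 RPKM with ethanol in the authors' deposited table. Isg20, an exonuclease gene, was at 1.44 RPKM with 4-OHT and 0.552 RPKM with ethanol in the authors' deposited table, without a sure pass. Another 5, Ifit1, Parp14, Samd9l, Lgals3bp and Ifi27 under its older name Ifi27l1, were under 1 RPKM in both arms.

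**Figure D3:**
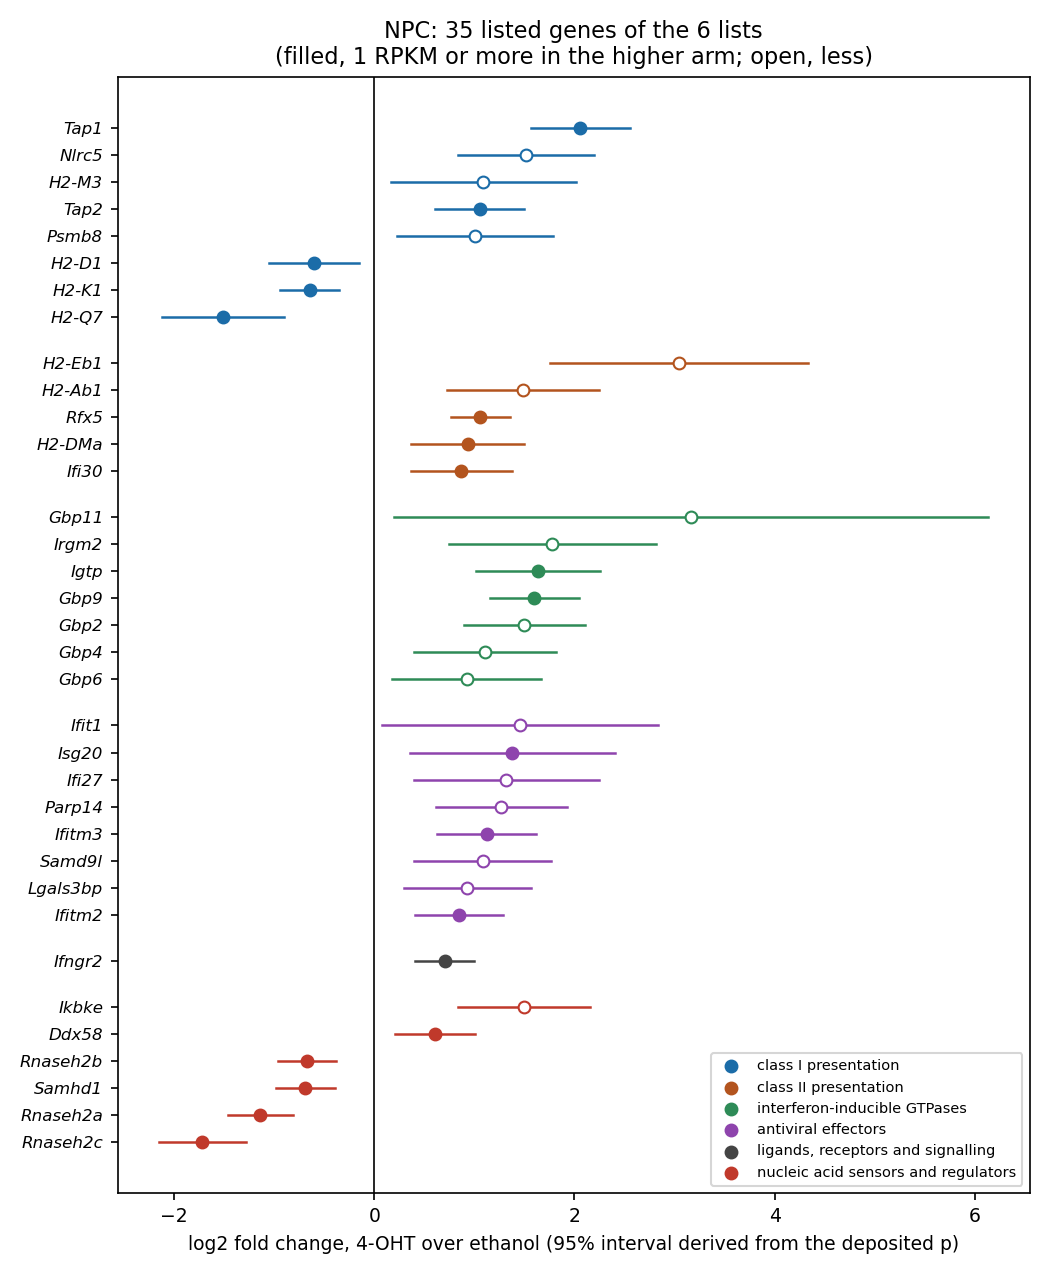
Log2 fold change of 4-OHT over ethanol in NPC for 35 of the 36 listed genes of the 6 lists, with 95% intervals derived from the deposited p; filled points reach 1 RPKM in the higher arm and open points do not. Class II, GTPase and antiviral genes lie right of 0, while H2-K1, H2-D1, H2-Q7, Samhd1 and the 3 RNase H2 genes lie left of it.

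Of 31 ligands, receptors and signaling genes, 1 is listed in NPC, beside 9.76% of protein-coding names. It is Ifngr2, a chain of the interferon gamma receptor, at 16.0 RPKM with 4-OHT and 9.82 RPKM with ethanol in the authors' deposited table (log2 fold change 0.70, SE 0.15). Among 19 nucleic acid sensors and their regulators, 6 are listed, 2 higher and 4 lower, where 56.6% of all listed genes are higher. The kinase gene Ikbke rose to 0.494 RPKM with 4-OHT against 0.175 RPKM with ethanol in the authors' deposited table. Ddx58, which encodes the RNA sensor RIG-I, was at 1.47 RPKM with 4-OHT and 0.966 RPKM with ethanol in the authors' deposited table, without a sure pass.

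The 4 that fell limit nucleic acids in the cell. All 4 reach 1 RPKM in the higher arm, and of the listed NPC genes at that level 47.3% were higher. RNase H2 removes ribonucleotides from DNA, and in humans its loss causes an inherited interferon disorder. All 3 subunit genes fell. Rnaseh2c was at 5.77 RPKM with 4-OHT and 19.0 RPKM with ethanol in the authors' deposited table, a log2 fold change of -1.72. Rnaseh2a was at 5.65 RPKM with 4-OHT and 12.4 RPKM with ethanol in the authors' deposited table, a log2 fold change of -1.14. For Rnaseh2b the authors' deposited table has 17.4 RPKM with 4-OHT and 27.8 RPKM with ethanol, a log2 fold change of -0.68. Samhd1, a nucleotide hydrolase gene, was at 6.70 RPKM with 4-OHT and 10.8 RPKM with ethanol in the authors' deposited table, a log2 fold change of -0.69. Their part in the change of Tap1, H2-Ab1 and Gbp2 was not tested.

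Class II and GTPase genes are also high in immune cells, and markers of such cells were looked up beside them. Of 20 macrophage and microglia markers 1 is listed in NPC, Cd14, at 1.12 RPKM with 4-OHT and 0.569 RPKM with ethanol in the authors' deposited table. Cd14 was without a sure pass. Beside these marker counts, 9.76% of protein-coding names are listed in NPC. Of 12 lymphocyte and dendritic cell markers 0 are listed, and the defining microglia markers Csf1r, Aif1, Ptprc and Itgam are not listed either, so their levels are not known here. Outside the list, 5 genes of myeloid and antigen-presenting cells, chosen after their values were seen, were also listed as higher. Other leukocyte genes, also picked after their values were seen, went both ways. Coro1a and Sykb were lower, with log2 fold changes of -0.83 and -0.72. Ptpn7 was higher, with a log2 fold change of 2.81 at 0.378 RPKM in its higher arm. Leukocyte genes were not counted in full. Of all listed NPC genes under 1 RPKM, 80.6% were higher. Csf2ra, a growth factor receptor chain, was at 3.37 RPKM with 4-OHT and 2.16 RPKM with ethanol in the authors' deposited table, without a sure pass. Cd80, a co-stimulatory ligand of T cells, was at 0.438 RPKM with 4-OHT and 0.0394 RPKM with ethanol, and the macrophage gene Mpeg1 at 0.437 RPKM with 4-OHT and 0.196 RPKM with ethanol, in the authors' deposited table. By the authors' deposited table, Tlr4 and the leukocyte integrin gene Itgb2 stayed under 1 RPKM in both arms, and their log2 fold changes were 1.63 and 2.70. Itgb2 was without a sure pass. Of 8 endothelial markers 2 are listed, Flt1 at 0.118 RPKM with 4-OHT and 0.0658 RPKM with ethanol and Tek at 0.140 RPKM with 4-OHT and 0.0804 RPKM with ethanol in the authors' deposited table. Of 12 fibroblast markers Postn is listed, at 0.396 RPKM with 4-OHT and 0.214 RPKM with ethanol in the authors' deposited table. Flt1, Tek and Postn were all without a sure pass. Of 12 neural progenitor markers Hes5, a Notch effector, is listed, and it fell to 4.77 RPKM with 4-OHT against 15.8 RPKM with ethanol in the authors' deposited table (log2 fold change -1.73). The part of other cell types, or of a change in the progenitors, in these results was not tested.

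**Figure D4:**
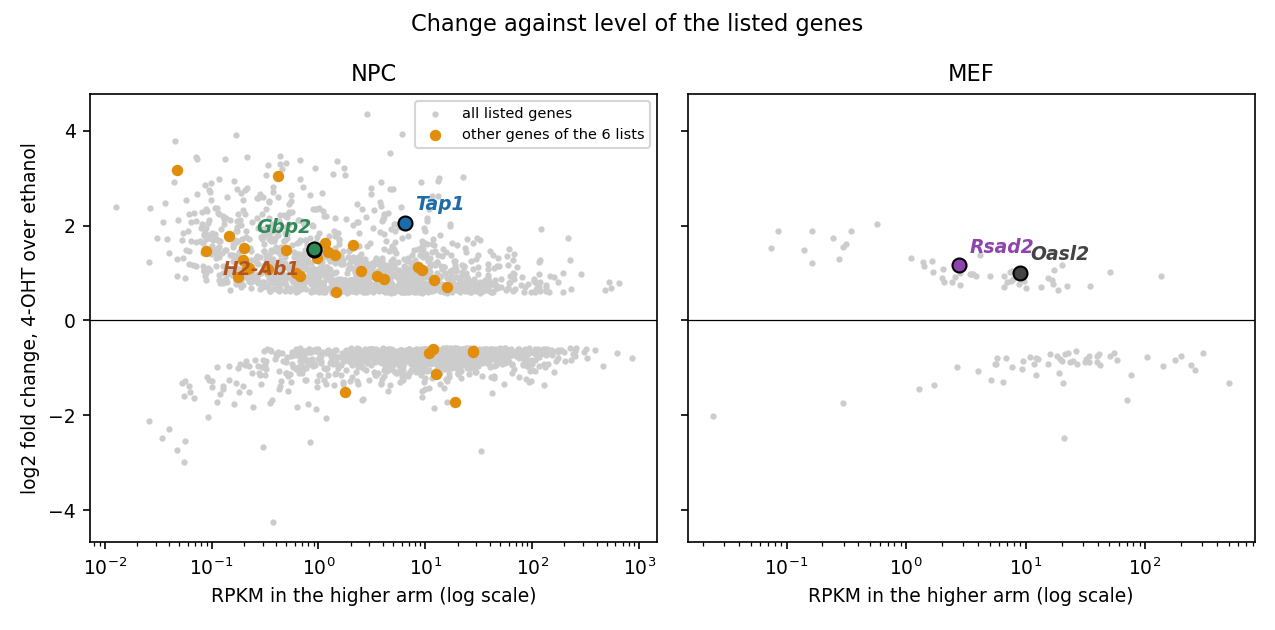
Log2 fold change of 4-OHT over ethanol against the RPKM of the higher arm on a log scale for all listed genes with a finite change (grey), other genes of the 6 lists (orange) and the 5 named genes, in NPC (left) and MEF (right). Tap1 stands at 6.39 RPKM and a log2 fold change of 2.06, Gbp2 and H2-Ab1 overlap below 1 RPKM, and Rsad2 and Oasl2 lie at log2 fold changes of 1.16 and 1.00.

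The splicing tables, which list 255 changed events in NPC and 71 in MEF, hold 0 events in the 5 genes and 0 in the 166 genes of the lists. All events together lie in 222 genes in NPC and 60 in MEF, beside 21924 protein-coding names. With so few genes holding an event, nothing is read from the counts of 0.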

How the data were processed

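RNA was sequenced from 3 libraries in each of 4 groups, per the labels. Reads were processed with CASAVA 1.8, TopHat2 2.03, Bowtie2 2.0.0.6 and Cuffdiff 2.02 on mm9, per the submitters' processing notes. The authors deposited 1 RPKM value for each arm, a log2 fold change and a p-value for each listed gene, per the file headers. The deposited splicing tables hold, per the file headers, a difference in inclusion level (a score) and a p-value for each event; neither was used, and the tables were searched for gene names alone. With 1 value per arm, no replicate test was possible. Standard errors and 95% intervals were derived from the deposited p-value as the log2 fold change over the normal quantile, with p-values of 0 set to 2.22e-16, the smallest other one deposited. The largest possible Benjamini-Hochberg adjusted p took all 55341 gene names of GENCODE M21 as tested. Both were run on data simulated under the same normal distribution, where they hold by construction. This checks the calculation and not whether it suits Cuffdiff p-values. The 5 genes and all lists were chosen with earlier results of these data known. The 6 pathway lists hold 166 genes and 5 further lists hold markers; 229 of the 230 genes had a name in the annotation or RefSeq. Named genes were the 5 genes, every listed gene of a list with 6 or fewer, otherwise the 4 with the largest change at 1 RPKM or more, and the 2 nearest genes in log2 RPKM. The other listed genes of the longer lists, and the added myeloid, leukocyte, interleukin and chemokine genes, were named after their values were seen. A listed gene is counted but not reported here by name. Names were matched directly, within joined names or as an older symbol. Sequences are from RefSeq on GRCm38.p6; the p53 element allowed up to 13 bases between half-sites. Alternatives were pseudocounts, minimum levels, a stricter p and other numbers of genes tested. Python 3.11.15, numpy 2.4.6, pandas 2.3.3, scipy 1.17.1 and matplotlib 3.10.9 were used.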

Additional observations from a re-analysis of the deposited data

How the results depend on the processing

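With a pseudocount of 1 RPKM in both arms, the log2 fold change was 1.55 for Tap1, 0.53 for H2-Ab1 and 0.53 for Gbp2 in NPC, each more than its derived SE below the deposited value; adding a constant shrinks ratios of low values by construction. With 0.1 RPKM these 3 were 1.99, 1.25 and 1.26, and Rsad2 and Oasl2 moved by less than their SE with either pseudocount. The same constant in both arms cannot turn a direction, so nothing is read from the directions staying the same. Requiring 1 RPKM in the higher arm left 1 of the 3 genes in NPC, Tap1, and 20 of the 36 list genes. A deposited p under 0.01 left 0 of the 2 genes in MEF, and hence 0 of the 2 list genes there, while all 3 in NPC stayed. Taking only the listed genes as tested, the lowest possible number, 2 genes in MEF would pass an adjusted p of 0.05, against 0 over all annotated names and 0 over protein-coding names, a choice added after seeing the data. With only listed genes as tested, every gene listed in MEF passes by construction, since the largest deposited Cuffdiff p there is 0.0492. No paired analysis was possible because the expression tables give 1 value per arm and no value per replicate, and for the same reason no replicate could be left out. The planned tests of splicing events were not run, since no event lies in these genes. Depth is unknown, so values under 1 RPKM rest on an unknown number of reads.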

Other observations

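Interleukin and chemokine genes, picked by the start of their names after the data were seen, add 9 listed genes in NPC, 7 higher and 2 lower with 4-OHT, and 3 in MEF. Of all listed NPC genes 56.6% were higher, and of those under 1 RPKM 80.6%, while 4 of the 9 reach 1 RPKM. The lower genes were Il17d (2.12 RPKM with 4-OHT, 3.46 RPKM with ethanol) and Il12rb2 (0.288 and 0.460 RPKM), in the authors' deposited table. Neither Il17d nor Il12rb2 was sure to pass. In NPC the chemokine gene Cx3cl1 rose to 10.8 RPKM with 4-OHT against 5.69 RPKM with ethanol in the authors' deposited table. The receptor gene Il15ra, whose product presents interleukin 15 to lymphocytes, rose to 4.13 RPKM with 4-OHT against 2.11 RPKM with ethanol in the authors' deposited table. Il11ra1 rose to 8.07 RPKM with 4-OHT against 4.71 RPKM with ethanol in the authors' deposited table. Il33, an alarmin gene, had 0.914 RPKM with 4-OHT and 0.453 RPKM with ethanol in the authors' deposited table. In MEF the chemokine gene Ccl20 was listed at 72.9 RPKM with 4-OHT and 141.7 RPKM with ethanol in the authors' deposited table, and Cxcl3 at 8.29 RPKM with 4-OHT and 20.8 RPKM with ethanol. Neither of these passes the bound on the adjusted p.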
